A study of Homo sapiens with 10 samples.

Results

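The immediate early genes and the feedback genes of the epidermal growth factor receptor pathway were followed across 5 adenoviral conditions in Panc1, an established cell line of epithelial origin from a human pancreatic carcinoma. The set was a list of 43 gene symbols grouped by role, and each gene was read from a transcript cluster (the group of probes summarised to 1 value) that carried this symbol alone. Of the 43 genes, 40 were measured, out of 18377 genes with such a cluster, and EGR2, AREG and BRAF were not analysed here. Only IER3 had more than 1 cluster, and the brighter one by the mean of all 10 arrays was taken.

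All cells carried an adenovirus at a multiplicity of infection of 150 for 48 h and differed in its insert. These were the EAPP mutant of KLF11, the A347S mutant, the Δ486 mutant, wild type KLF11 and no insert (Ad5CMV empty vector). KLF11 is a Krüppel-like zinc finger transcription factor that binds GC-rich promoter sites, and all its versions carried a His and Xpress epitope tag on top of the endogenous gene. The study describes EAPP as a proline substitution in the Sin3-interacting domain that breaks the contact with the Sin3 and histone deacetylase system. It describes A347S as uncoupling the factor from WD40 proteins and Δ486 as uncoupling it from HP1 and histone methyltransferases. The question was how these genes responded to each form, with EAPP set both against empty vector and against the other forms. Each condition had 2 Human Gene 1.0 ST arrays. By the methods and the extraction notes they were technical duplicates of RNA pooled from separate cultures, although the titles number them as biological, so every error below is a spread between arrays.

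Values are normalised log2 expression. A change is the difference of 2 group means on this scale with limma's standard error (SE), fitted over all 20961 clusters that carry a gene symbol. A gene was called at a Benjamini-Hochberg adjusted p under 0.05 together with a change of at least 1.5-fold, and the words rose and fell are kept for called genes. All comparisons with empty vector share the same 2 empty vector arrays, so their values stand side by side and are not independent. The array medians lay between 6.81 and 6.87, and the paired arrays of each condition correlated at 0.996 to 0.997 across clusters, which are not independent replicates. The KLF11 cluster read 8.78 and 8.68 with EAPP, 8.72 to 8.88 on the 6 arrays of the other KLF11 forms, and 8.37 and 7.75 with empty vector. EAPP minus wild type KLF11 was -0.11 for it (95% interval -0.46 to 0.25). Of the epithelial markers, KRT8 read 12.2 to 12.7, KRT18 12.8 to 13.2 and EPCAM 8.32 to 8.78 on the 10 arrays, while CDH1, at 4.71 to 5.12, was among the 5241 dimmest of the 20961 clusters. The log2 change of KRT19 was -0.44 for EAPP (unadjusted p = 0.00796, not called), and it fell with the other forms, at -1.51 for A347S, -1.06 for Δ486 and -0.99 for wild type KLF11. EAPP minus A347S (1.07, adjusted p = 0.000528) and EAPP minus Δ486 (0.62, adjusted p = 0.0123) were called for KRT19. KRT8 and KRT18 passed the adjusted p with A347S (-0.43 and -0.25) and Δ486 (-0.33 and -0.35) but were not called. KRT7, at 6.28 to 6.52, changed by -0.02 to 0.08 across the KLF11 forms, EPCAM by 0.07 to 0.12 and CDH1 by -0.16 to 0.07. KRT7, EPCAM and CDH1 passed the adjusted p with no form. The leukocyte marker CD14 was 0.28 higher with EAPP, rose by 0.59 with A347S and was 0.58 higher with Δ486 and 0.37 higher with wild type KLF11 (adjusted p = 0.0534), with PTPRC at 3.44 to 3.75 and CD3E at 4.80 to 5.09 on every array. The fibroblast, endothelial, acinar and islet markers measured were called with no form, but COL1A1 passed the adjusted p with A347S (-0.34, adjusted p = 0.00422) and in EAPP minus A347S (0.23, adjusted p = 0.0355). The part of these markers in the changes below was not tested.

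In this pathway, ligands such as HB-EGF and epiregulin bind receptors of the EGFR family, which act through RAS and RAF on the MEK and ERK kinases. ERK activity switches on immediate early genes without new protein synthesis, among them FOS, JUN and EGR1, whose products are transcription factors. It also switches on its own brakes, the dual-specificity phosphatases that remove phosphate from MAP kinases and the Sprouty and Spred proteins that act upstream of ERK.

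Promoter sequences are shown for genes on both sides of the results. HBEGF and FOS were called higher, PHLDA1 and IER2 were called lower, and EGR1 was called in no comparison. Each run is the 250 bases before the only transcription start listed for the gene, 5′ to 3′ on the gene's strand, from RefSeq on GRCh38.p14. Capitals mark CCCCGC or CCCCAC, a GC-rich motif of the kind that KLF11 binds, on either strand (GCGGGG or GTGGGG where it lies on the other strand). For EGR1 they mark the CArG box, the site of serum response factor. HBEGF lies at chr5:140346604-140346853 on the minus strand, with matches that begin at bases -140 and -61 from the start. FOS lies at chr14:75278578-75278827 on the plus strand, with 1 match at -164. PHLDA1 lies at chr12:76031777-76032026 on the minus strand, with 1 match at -181. IER2 lies at chr19:13150161-13150410 on the plus strand, with matches at -149 and -11. EGR1 lies at chr5:138465229-138465478 on the plus strand, with CArG boxes at -105 and -83.
HBEGF: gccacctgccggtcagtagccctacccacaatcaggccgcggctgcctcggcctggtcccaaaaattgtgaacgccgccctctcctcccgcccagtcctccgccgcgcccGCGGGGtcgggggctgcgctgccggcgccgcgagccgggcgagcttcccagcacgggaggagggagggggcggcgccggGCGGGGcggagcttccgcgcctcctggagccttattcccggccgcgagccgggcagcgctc
FOS: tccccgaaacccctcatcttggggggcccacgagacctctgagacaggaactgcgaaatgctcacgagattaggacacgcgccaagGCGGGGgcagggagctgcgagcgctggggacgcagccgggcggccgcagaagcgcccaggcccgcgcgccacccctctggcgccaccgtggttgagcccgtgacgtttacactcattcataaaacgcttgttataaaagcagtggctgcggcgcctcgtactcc
PHLDA1: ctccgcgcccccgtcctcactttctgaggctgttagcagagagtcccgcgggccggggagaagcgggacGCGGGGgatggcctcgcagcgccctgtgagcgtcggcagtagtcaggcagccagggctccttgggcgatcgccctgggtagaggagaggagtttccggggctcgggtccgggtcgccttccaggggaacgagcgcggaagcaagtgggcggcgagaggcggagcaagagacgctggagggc
IER2: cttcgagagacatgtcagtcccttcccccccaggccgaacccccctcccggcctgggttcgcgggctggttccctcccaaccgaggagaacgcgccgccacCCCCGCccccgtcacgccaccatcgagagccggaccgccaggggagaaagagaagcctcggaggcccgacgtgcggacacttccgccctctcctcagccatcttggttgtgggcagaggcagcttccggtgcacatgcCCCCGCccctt
EGR1: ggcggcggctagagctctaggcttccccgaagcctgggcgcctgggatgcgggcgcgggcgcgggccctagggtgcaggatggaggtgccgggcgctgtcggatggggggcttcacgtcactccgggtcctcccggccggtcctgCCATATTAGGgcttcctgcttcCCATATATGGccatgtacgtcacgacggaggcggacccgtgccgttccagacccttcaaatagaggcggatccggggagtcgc

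Of the measured members, 29 had 39 promoters in the RefSeq table. CCCCGC or CCCCAC, counted once where both were present, lay within 250 bases before the start in 30 of the 39 (76.9%), against 54.1% of all 35116 promoters. TGACTCA, the AP-1 site, lay in 1 of the 39 (2.56%), that of EGFR, against 4.2% of all, and the CArG box in that of EGR1 alone (2.56%), against 1.16% of all. These shares are descriptions, since several promoters of a gene share sequence. Genes called higher, called lower and not called were all among those with the GC-rich letters. The genes with a promoter in the table and none of these letters were EGR1, JUN, ERBB2 and SPRY4, of which JUN was called lower. ETV4, ERBB3, ETS1, EGR3, FOSL1, ETV5, DUSP5, IER3, DUSP4, MYC and PHLDA2 have no promoter shown or counted.

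With EAPP, 0 of the 40 genes were called against empty vector in limma, where the background was 0.00477% of all clusters. Trend and robust moderation also called 0 of the 40, and 21 of all clusters. The plain t-test called 0 of all clusters against empty vector with every form, so its 0 says nothing about these genes. In bulk RNA of this kind, fewer expressing cells and less RNA per cell cannot be told apart. Without the adjustment, as the study treats this mutant, 0 also reached an unadjusted p under 0.05 with the 1.5-fold, where the background was 0.181%. At an unadjusted p under 0.05 alone, 11 of 40 passed, all lower with EAPP, while 8.73% of all clusters passed, 5.22% lower. These 11 were JUN, FOSL2, IER3, MYC, ETS1, ETS2, DUSP6, SPRY2, SPRY4, PHLDA1 and EREG, with log2 changes from -0.41 to -0.20. The median change of the 40 genes was -0.09, against 0.00 over all clusters, and 30 of 40 were below 0, against 49.6% of all clusters. Both EAPP arrays lay outside both empty vector arrays for 23 of 40, 22 of them below, where 39.3% of all clusters did so and 21.1% below.

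With A347S 8 of 40 were called (background 8.98%), 1 higher (3.63%) and 7 lower (5.35%). With Δ486 5 of 40 were called (background 5.61%), 2 higher (2.38%) and 3 lower (3.23%). With wild type KLF11 2 of 40 were called (background 3.99%), 1 higher (2.21%) and 1 lower (1.78%). By the adjusted p alone 20 genes passed with A347S (28.4% of all clusters), 10 with Δ486 (22.4%) and 9 with wild type KLF11 (17.3%). As shares of the 40 genes, 17.5% were called lower with A347S, against the 5.35% of all clusters, and 42.5% were lower by the adjusted p alone, against 16.9%. The median change of the 40 genes was -0.21 with A347S, -0.16 with the Δ486 form and -0.15 with wild type KLF11, against 0.01, 0.02 and -0.02 over all clusters.

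**Figure D1:**
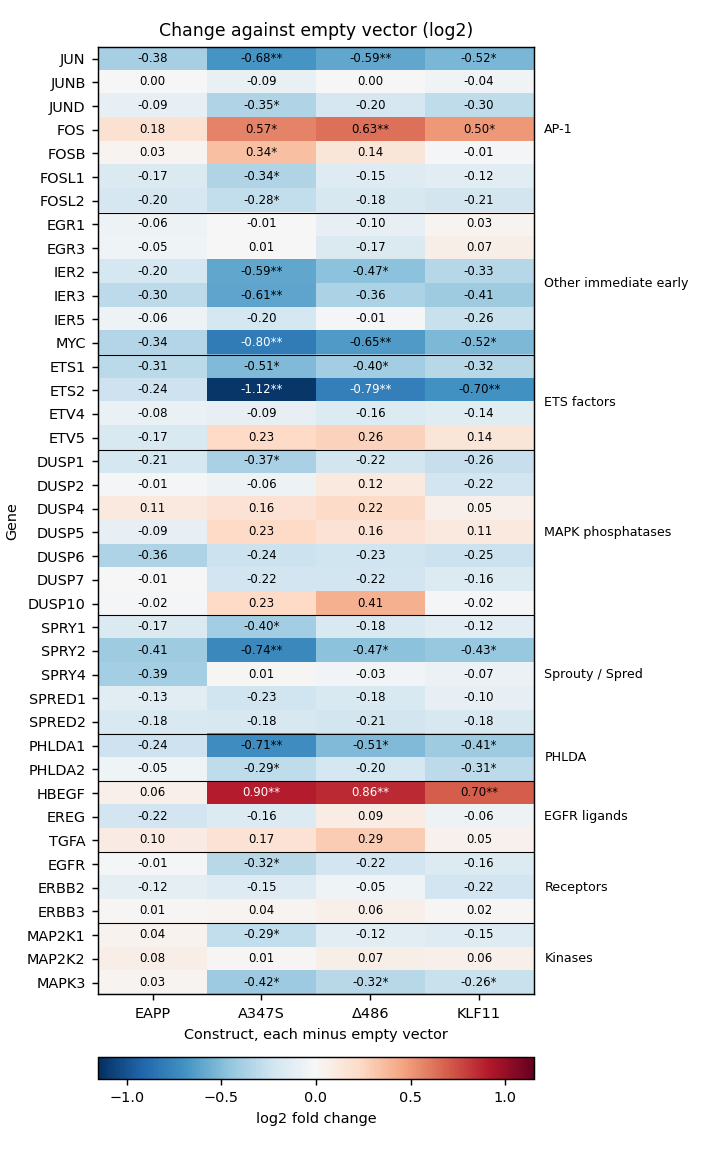
Change of each of the 40 genes against empty vector, in log2 units, for EAPP, A347S, Δ486 and wild type KLF11, with genes ordered by role. Colour and number give the change, ** marks a called gene and * an adjusted p under 0.05 without the 1.5-fold; HBEGF and ETS2 carry ** in the A347S, Δ486 and KLF11 columns, and the EAPP column carries no mark.

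Among the ligands, HBEGF rose with 3 of the 4 KLF11 forms and not with EAPP. HBEGF encodes heparin-binding EGF-like growth factor, made as a membrane protein and shed as a ligand of EGFR and ERBB4. It read 7.79 and 7.70 with EAPP, 8.47 and 8.70 with A347S, 8.47 and 8.62 with Δ486, 8.48 and 8.28 with wild type KLF11, and 7.63 and 7.74 with empty vector. The EAPP arrays overlapped those of empty vector, and all 6 arrays of the other forms lay above both groups. The rise over empty vector was 1.87-fold with A347S (log2 0.90, SE 0.11, adjusted p = 0.000245), 1.81-fold with Δ486 (0.86, adjusted p = 0.000599) and 1.62-fold with wild type KLF11 (0.70, adjusted p = 0.00244). With EAPP the change was 0.06 (95% interval -0.18 to 0.30, adjusted p = 0.918). The difference between EAPP and the other forms was itself past the threshold. EAPP was lower by a log2 change of -0.84 than A347S (adjusted p = 0.000587), -0.80 than Δ486 (adjusted p = 0.00151) and -0.64 than wild type KLF11 (adjusted p = 0.00577). The last of these was -0.54 without the first wild type KLF11 array and was then no longer called (adjusted p = 0.0611).

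The other measured ligands did not pass the adjusted test against empty vector with any form. EREG encodes epiregulin, an EGFR and ERBB4 ligand. It read 5.90 and 6.02 with EAPP, 6.10 and 5.95 with A347S, 6.25 and 6.29 with Δ486, 6.08 and 6.17 with wild type KLF11, and 6.27 and 6.09 with empty vector. Both EAPP arrays lay just below both empty vector arrays, a change of -0.22 (unadjusted p = 0.035, adjusted p = 0.527), and EAPP minus Δ486 was -0.31 (adjusted p = 0.048). TGFA, which encodes transforming growth factor alpha, read 4.41 and 4.55 with EAPP, 4.68 and 4.43 with A347S, 4.78 and 4.56 with Δ486, 4.69 and 4.18 with wild type KLF11, and 4.48 and 4.29 with empty vector. Both Δ486 arrays lay above the EAPP arrays and the empty vector arrays, the EAPP arrays overlapped those of empty vector, and the mean was among the 5241 dimmest clusters.

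ETS2 fell with the 3 forms with which HBEGF rose. It encodes an ETS family transcription factor that ERK phosphorylates. ETS2 read 11.05 and 11.06 with EAPP, 10.28 and 10.08 with A347S, 10.61 and 10.42 with Δ486, 10.58 and 10.62 with wild type KLF11, and 11.34 and 11.26 with empty vector. The EAPP arrays lay below both empty vector arrays and above all 6 arrays of the other forms. ETS2 fell with A347S by 1.12 on the log2 scale (SE 0.092, adjusted p = 4.73e-05), with Δ486 by 0.79 (adjusted p = 0.000477) and with wild type KLF11 by 0.70 (adjusted p = 0.00124). The EAPP value was -0.24 (95% interval -0.45 to -0.04, unadjusted p = 0.0262, adjusted p = 0.502). Set directly against the other forms, EAPP was 0.88 above A347S (adjusted p = 0.00024), and this difference was called. It was 0.54 above Δ486 (adjusted p = 0.00469) and 0.45 above wild type KLF11 (adjusted p = 0.0145), both short of the 1.5-fold. Without the first Δ486 array the difference from Δ486 was 0.64 and was called.

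The remaining ETS genes were called with no form. ETS1, a close relative of ETS2, read 8.54 and 8.45 with EAPP, 8.40 and 8.20 with A347S, 8.33 and 8.48 with Δ486, 8.57 and 8.40 with wild type KLF11, and 8.73 and 8.87 with empty vector. All 8 arrays with a KLF11 form lay below both empty vector arrays. The change was -0.31 with EAPP (unadjusted p = 0.0141, adjusted p = 0.427), -0.51 with A347S (adjusted p = 0.00436), -0.40 with Δ486 (adjusted p = 0.0205) and -0.32 with wild type KLF11 (adjusted p = 0.0584). It was called with A347S without the first A347S array, at -0.61. ETV4 and ETV5 belong to the PEA3 group of ETS factors, known as ERK-dependent transcripts. ETV5 read 8.17 and 8.02 with EAPP, 8.58 and 8.42 with A347S, 8.54 and 8.53 with Δ486, 8.52 and 8.30 with wild type KLF11, and 8.25 and 8.28 with empty vector. EAPP was the lowest group, with both arrays below every other array, and the difference was -0.40 from A347S (adjusted p = 0.014) and -0.44 from Δ486 (adjusted p = 0.0151), under the 1.5-fold. EAPP minus wild type KLF11 was -0.32 for ETV5 and did not pass (adjusted p = 0.0683). Against empty vector ETV5 was -0.17 with EAPP (adjusted p = 0.671). ETV4 changes lay between -0.16 and -0.08 with all forms.

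**Figure D2:**
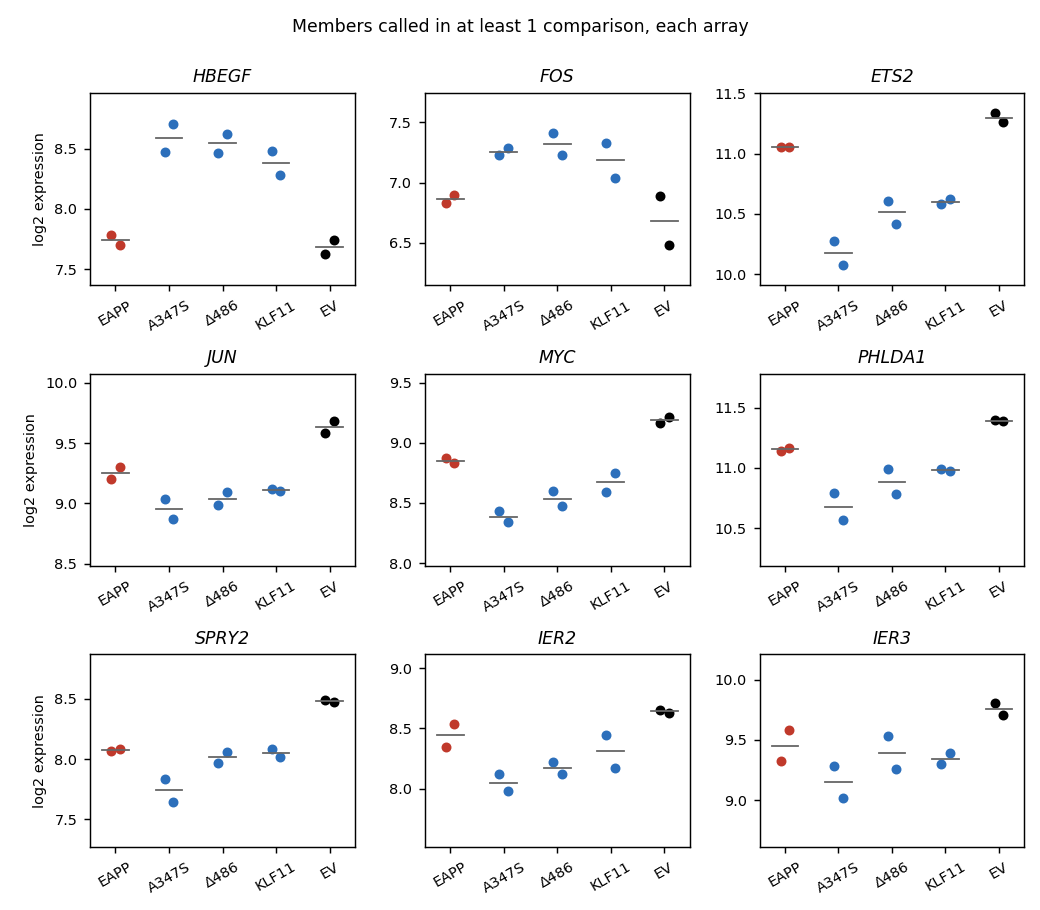
Log2 expression on each array for the 9 genes called in at least 1 comparison, by condition in the order EAPP, A347S, Δ486, KLF11 and EV (empty vector), with points for arrays and a bar for the mean of 2 arrays. Each panel has its own axis; for HBEGF the EAPP points lie with the empty vector points, and for ETS2 they lie between empty vector and the other forms.

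FOS and JUN, whose products pair to form the AP-1 transcription factor, moved in opposite directions with Δ486. FOS read 6.83 and 6.90 with EAPP, 7.23 and 7.28 with A347S, 7.41 and 7.23 with Δ486, 7.33 and 7.04 with wild type KLF11, and 6.88 and 6.48 with empty vector. The empty vector arrays lay far apart, the EAPP arrays overlapped them, and the 6 arrays of the other forms lay above all 4. FOS rose with Δ486 (0.63, SE 0.14, adjusted p = 0.00927), and it was 0.57 with A347S (adjusted p = 0.0115) and 0.50 with wild type KLF11 (adjusted p = 0.0343), both under the 1.5-fold. Without the first empty vector array FOS was called with A347S (0.77) and wild type KLF11 (0.70). It was called with A347S also after cyclic loess scaling or without the first A347S array (0.60 in both), and with wild type KLF11 without the second array of that group (0.64). The Δ486 call was lost without the first Δ486 array (0.54), without the second empty vector array (0.43) and after median centring of the arrays (0.56). The EAPP value was 0.18 (95% interval -0.13 to 0.49). EAPP minus Δ486 was -0.46 (adjusted p = 0.0539), so a difference between these forms was not shown at the adjusted threshold.

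JUN read 9.21 and 9.30 with EAPP, 9.03 and 8.87 with A347S, 8.98 and 9.10 with Δ486, 9.12 and 9.10 with wild type KLF11, and 9.58 and 9.68 with empty vector. All forms lay below both empty vector arrays, and EAPP lay above the other forms. JUN fell with A347S by 0.68 on the log2 scale (SE 0.085, adjusted p = 0.00033) and with Δ486 by 0.59 (adjusted p = 0.00122). The Δ486 call was lost after cyclic loess scaling, without the first Δ486 array and without the second empty vector array, at -0.54 in each. JUN was -0.52 with wild type KLF11 (adjusted p = 0.00323) and -0.38 with EAPP (unadjusted p = 0.00145, adjusted p = 0.261). EAPP was 0.30 above A347S (adjusted p = 0.029), while EAPP minus wild type KLF11 was 0.15 with a 95% interval of -0.04 to 0.34.

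The other AP-1 genes were not called. FOSL2, which encodes Fra-2, read 7.35 and 7.27 with EAPP, 7.25 and 7.20 with A347S, 7.32 and 7.33 with Δ486, 7.24 and 7.35 with wild type KLF11, and 7.43 and 7.58 with empty vector. All 8 arrays with a KLF11 form were lower than the empty vector arrays, by -0.20 with EAPP (unadjusted p = 0.0347) and -0.28 with A347S (adjusted p = 0.0241). FOSB was 0.34 higher with A347S (adjusted p = 0.00489), and EAPP lay -0.31 below A347S (adjusted p = 0.0108). JUNB changes ranged from -0.09 to 0.00. JUND and FOSL1 were -0.35 (adjusted p = 0.0175) and -0.34 (adjusted p = 0.00891) with A347S and passed the adjusted test with no other form.

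Of the other immediate early genes, MYC fell with A347S and Δ486. MYC encodes a transcription factor that drives growth. It read 8.87 and 8.83 with EAPP, 8.43 and 8.34 with A347S, 8.60 and 8.47 with Δ486, 8.59 and 8.75 with wild type KLF11, and 9.16 and 9.21 with empty vector. The EAPP arrays lay between those of empty vector and those of the other forms, with no overlap. MYC fell with A347S by 0.80 on the log2 scale (adjusted p = 0.000127) and with Δ486 by 0.65 (adjusted p = 0.000666). It was -0.52 with wild type KLF11 (adjusted p = 0.00311), called at -0.59 without the second array of that group, and -0.34 with EAPP (unadjusted p = 0.0025, adjusted p = 0.29). EAPP was 0.46 above A347S (SE 0.083, adjusted p = 0.00327) and 0.32 above Δ486 (adjusted p = 0.0317), both under the 1.5-fold, and the difference from wild type KLF11 was 0.18 (95% interval -0.01 to 0.37).

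IER2 and IER3 fell with A347S alone of the 4 forms, although A347S minus wild type KLF11 was not called for either (-0.26 for IER2, adjusted p = 0.316). IER2 encodes a nuclear protein induced early by growth factors. IER2 read 8.35 and 8.54 with EAPP, 8.12 and 7.98 with A347S, 8.22 and 8.13 with Δ486, 8.44 and 8.17 with wild type KLF11, and 8.65 and 8.63 with empty vector. It fell with A347S by 0.59 on the log2 scale (adjusted p = 0.00242), and EAPP was 0.40 above A347S (adjusted p = 0.0244). IER3, a regulator of cell survival that is an ERK substrate, read 9.32 and 9.58 with EAPP, 9.29 and 9.01 with A347S, 9.54 and 9.25 with Δ486, 9.30 and 9.39 with wild type KLF11, and 9.81 and 9.70 with empty vector. All 8 arrays with a KLF11 form were below empty vector, and both A347S arrays lay below those of EAPP and wild type KLF11. IER3 fell with A347S by 0.61 (adjusted p = 0.00604), and its second cluster was at -0.57, under the 1.5-fold. Both calls were lost after cyclic loess scaling (-0.52 for IER2 and -0.54 for IER3), without the first empty vector array (-0.58 and -0.55) and without the second A347S array (-0.52 and -0.47).

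EGR1 and EGR3, zinc finger factors that respond early to serum and growth factors, and IER5 were not called with any form. EGR1 changes lay between -0.10 and 0.03, but its SE of 0.14 was wide, and the EAPP interval ran from -0.37 to 0.25. EGR3 changes lay between -0.17 and 0.07. Neither passed an unadjusted p under 0.05 against empty vector.

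Of the Sprouty and Spred genes, SPRY2 was called with A347S, and SPRY4 was lowest with EAPP. Both encode inhibitors of receptor tyrosine kinase signalling to ERK. SPRY2 read 8.07 and 8.08 with EAPP, 7.84 and 7.65 with A347S, 7.97 and 8.06 with Δ486, 8.08 and 8.02 with wild type KLF11, and 8.49 and 8.48 with empty vector. All 8 arrays with a KLF11 form were below empty vector, and the A347S arrays were the lowest. SPRY2 fell with A347S by 0.74 on the log2 scale (SE 0.082, adjusted p = 0.000171), and it was -0.47 with Δ486 (adjusted p = 0.00302) and -0.43 with wild type KLF11 (adjusted p = 0.00632). With EAPP it was -0.41 (95% interval -0.59 to -0.23), the smallest unadjusted p of the 40 genes for this mutant (0.000595, adjusted p = 0.216). EAPP minus wild type KLF11 was 0.02 (95% interval -0.16 to 0.21), and EAPP was 0.33 above A347S (adjusted p = 0.0157).

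SPRY4 read 8.20 and 7.96 with EAPP, 8.50 and 8.47 with A347S, 8.47 and 8.42 with Δ486, 8.43 and 8.39 with wild type KLF11, and 8.54 and 8.41 with empty vector. The 2 EAPP arrays lay below all 8 other arrays, which spanned 8.39 to 8.54. The EAPP change against empty vector was -0.39 (SE 0.091, unadjusted p = 0.00182, adjusted p = 0.279), against 0.01 with A347S, -0.03 with the Δ486 form and -0.07 with wild type KLF11. EAPP minus A347S was -0.40 (adjusted p = 0.0108) and EAPP minus Δ486 was -0.36 (adjusted p = 0.0273), while EAPP minus wild type KLF11 was -0.32 (adjusted p = 0.0521). None of these reached 1.5-fold. SPRY1 was -0.40 with A347S (adjusted p = 0.00771), and SPRED1 and SPRED2 passed the adjusted test with no form.

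**Figure D3:**
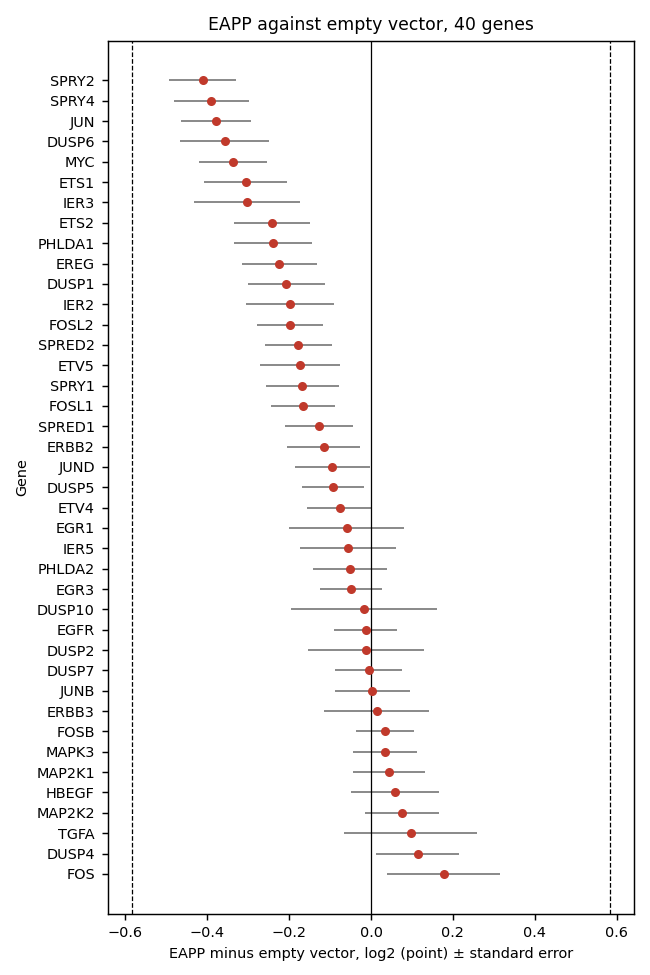
EAPP minus empty vector for the 40 genes, sorted, as log2 change (point) with the limma standard error (line); dashed lines mark 1.5-fold. Every point lies inside the dashed lines, from -0.41 for SPRY2 to 0.18 for FOS, and 30 of 40 lie below 0.

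The phosphatase genes gave no call with any form. DUSP6 encodes the cytoplasmic phosphatase of ERK. DUSP6 read 7.93 and 7.59 with EAPP, 7.83 and 7.92 with A347S, 7.89 and 7.90 with Δ486, 7.89 and 7.85 with wild type KLF11, and 8.04 and 8.20 with empty vector. All 8 arrays with a KLF11 form were below empty vector, and the EAPP arrays stood farther apart than those of any other group and spanned the other forms. The change was -0.36 with EAPP (SE 0.11, unadjusted p = 0.00874, adjusted p = 0.392) and -0.25 to -0.23 with the other forms. DUSP1, which encodes a nuclear MAP kinase phosphatase, read 9.18 and 9.33 with EAPP, 9.14 and 9.04 with A347S, 9.31 and 9.19 with Δ486, 9.29 and 9.11 with wild type KLF11, and 9.52 and 9.41 with empty vector. These 8 arrays were again below empty vector, with -0.21 for EAPP (adjusted p = 0.585) and -0.37 for A347S (adjusted p = 0.014). DUSP5, which encodes a nuclear ERK phosphatase, lay -0.32 lower with EAPP than with A347S (adjusted p = 0.0139). The other 4 measured phosphatase genes, DUSP2, DUSP4, DUSP7 and DUSP10, passed the adjusted test in no comparison with empty vector.

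PHLDA1 and PHLDA2 encode proteins with a pleckstrin homology-like domain. PHLDA1 read 11.14 and 11.16 with EAPP, 10.79 and 10.57 with A347S, 10.99 and 10.78 with Δ486, 10.99 and 10.98 with wild type KLF11, and 11.40 and 11.39 with empty vector. As for ETS2 and MYC, the EAPP arrays lay between empty vector and the 6 arrays of the other forms. PHLDA1 fell with A347S by 0.71 on the log2 scale (SE 0.096, adjusted p = 0.000462), and was -0.51 with Δ486 (adjusted p = 0.00447), -0.41 with wild type KLF11 (adjusted p = 0.0166) and -0.24 with EAPP (adjusted p = 0.516). EAPP was 0.47 above A347S (adjusted p = 0.00596), under the 1.5-fold. Without the first Δ486 array PHLDA1 was called with Δ486, at -0.61. PHLDA2 read 8.90 and 8.88 with EAPP, 8.69 and 8.61 with A347S, 8.83 and 8.66 with Δ486, 8.65 and 8.62 with wild type KLF11, and 9.04 and 8.84 with empty vector. The EAPP arrays lay within the range of empty vector, at -0.05 (95% interval -0.26 to 0.15).

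The EAPP changes of the receptor and kinase genes lay between -0.12 and 0.08. EGFR read 9.14 and 9.01 with EAPP, 8.82 and 8.73 with A347S, 8.86 and 8.87 with Δ486, 8.89 and 8.98 with wild type KLF11, and 9.10 and 9.08 with empty vector. The EAPP arrays spanned those of empty vector, and the 6 arrays of the other forms lay below both groups. EGFR was -0.32 with A347S (SE 0.077, adjusted p = 0.0118), and EAPP was 0.30 above A347S (adjusted p = 0.0179). ERBB2 read 6.96 and 7.03 with EAPP, 7.04 and 6.88 with A347S, 7.01 and 7.10 with Δ486, 6.86 and 6.91 with wild type KLF11, and 7.02 and 7.20 with empty vector, and its groups overlapped except that both wild type KLF11 arrays lay below those of EAPP, Δ486 and empty vector. ERBB3 changes lay between 0.01 and 0.06.

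MAPK3, which encodes ERK1, passed the adjusted test with every form but EAPP. MAPK3 read 8.55 and 8.61 with EAPP, 8.14 and 8.11 with A347S, 8.30 and 8.14 with Δ486, 8.26 and 8.31 with wild type KLF11, and 8.58 and 8.51 with empty vector. The EAPP and empty vector arrays overlapped, and all 6 arrays of the other forms lay below them. MAPK3 was 0.03 with EAPP (95% interval -0.14 to 0.21), -0.42 with A347S (adjusted p = 0.00279), -0.32 with Δ486 (adjusted p = 0.0154) and -0.26 with wild type KLF11 (adjusted p = 0.0484). EAPP was higher by 0.46 than A347S (adjusted p = 0.00263), by 0.36 than Δ486 (adjusted p = 0.0144) and by 0.29 than wild type KLF11 (adjusted p = 0.0419), all under the 1.5-fold. MAP2K1, which encodes MEK1, read 9.70 and 9.76 with EAPP, 9.49 and 9.31 with A347S, 9.54 and 9.59 with Δ486, 9.47 and 9.59 with wild type KLF11, and 9.63 and 9.74 with empty vector. EAPP overlapped empty vector and lay 0.33 above A347S (adjusted p = 0.0228). MAP2K2, which encodes MEK2, read 8.29 and 8.37 with EAPP, 8.32 and 8.21 with A347S, 8.39 and 8.25 with Δ486, 8.27 and 8.37 with wild type KLF11, and 8.34 and 8.17 with empty vector, with all groups overlapping empty vector.

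The direct comparisons of EAPP with the other forms use no empty vector array, and they share the 2 EAPP arrays. Against A347S, 2 of 40 genes were called (HBEGF lower and ETS2 higher with EAPP, background 6.01%), and 14 of 40 passed the adjusted p alone, against 23.4% of all clusters. Against Δ486, 1 of 40 was called (HBEGF, background 3.26%), and 7 passed the adjusted p alone, against 15% of all clusters. Against wild type KLF11, 1 of 40 was called (HBEGF, background 2.51%), and 3 passed the adjusted p alone (HBEGF, ETS2 and MAPK3), against 10.8% of all clusters. The number called was near or below the background in each. HBEGF, ETS2 and MAPK3 passed the adjusted p against all 3 forms. The share of all clusters that did so was not computed, so this has no background beside it.

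**Figure D4:**
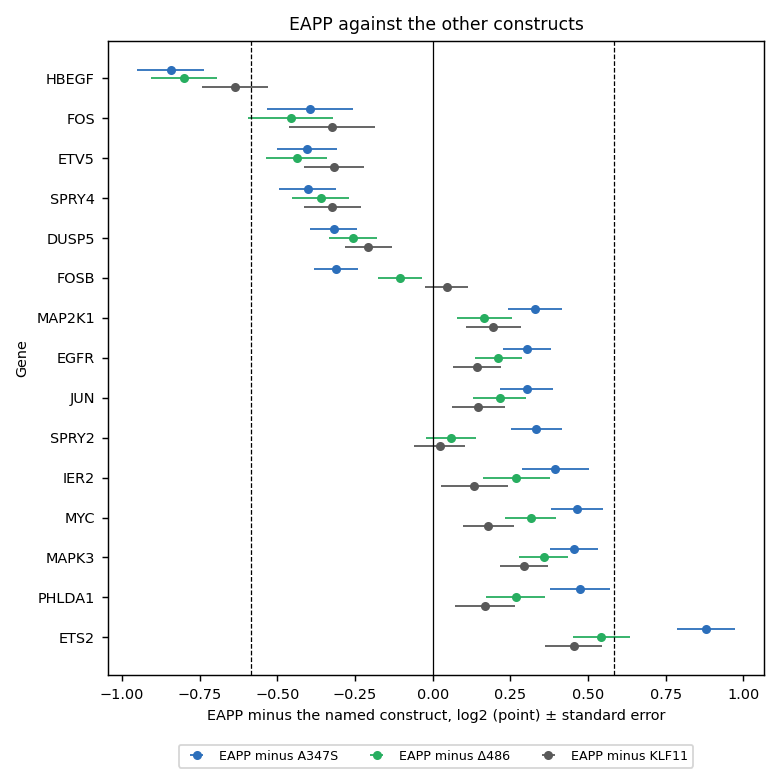
EAPP minus A347S, Δ486 and wild type KLF11 for the 15 genes shown, as log2 difference (point) with the limma standard error (line); dashed lines mark 1.5-fold. HBEGF lies beyond the left line for all 3 differences and ETS2 beyond the right line for A347S. The genes are FOS and the 14 that passed the adjusted p in EAPP minus A347S, so they were chosen on values plotted here. EREG, which passed the adjusted p in EAPP minus Δ486, is not shown.

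The remaining question was whether the other mutants differed from wild type KLF11. In limma, A347S minus wild type KLF11 called 0 of 40 genes and Δ486 minus wild type KLF11 called 0 of 40 (background 0% for both). A plain t-test also called 0 in each, but it called 0 of all clusters against empty vector with every form, so it cannot decide this. At an unadjusted p under 0.05 in limma, 8 genes passed for A347S (background 14.4%) and 3 for Δ486 (background 10.5%). For A347S these were FOSB at 0.35, and ETS2 at -0.43, SPRY2 at -0.31, PHLDA1 at -0.31, MYC at -0.28, SPRY1 at -0.28, IER2 at -0.26 and FOSL1 at -0.22. The smallest adjusted p among them was 0.167. For Δ486 they were DUSP10 at 0.43, DUSP2 at 0.33 and EGR3 at -0.23. DUSP10 was among the 5241 dimmest clusters, its SE was 0.18, and its wild type KLF11 arrays lay apart at 5.28 and 4.85.

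A further list of 53 genes of the pathway, of which 47 were measured, gave the surroundings of these genes. With EAPP 0 of 47 were called in limma, and 11 (23.4%) had an unadjusted p under 0.05, 10 of them lower, against 8.73% of all clusters. With A347S 10 of 47 (21.3%) were called, 9 of them lower, against 8.98% of all clusters. With Δ486 5 (10.6%) were called, all lower, against 5.61%, and with wild type KLF11 4 (8.51%), all lower, against 3.99%. The median change was -0.10 with EAPP, -0.29 with A347S, -0.17 with the Δ486 form and -0.20 with wild type KLF11, against 0.00, 0.01, 0.02 and -0.02 over all clusters. NRG1 and KLF10 were called with all forms but EAPP. NRG1, which encodes the ERBB3 and ERBB4 ligand neuregulin, fell by 1.09 on the log2 scale with A347S (adjusted p = 2.21e-05) and by 0.81 in cells with Δ486 (adjusted p = 0.000148). With wild type KLF11 it fell by 0.60, a call lost with cyclic loess scaling (-0.57), with the mean of its clusters (-0.44) and without the first empty vector array (-0.57). With EAPP NRG1 was -0.55 (unadjusted p = 2.47e-05, adjusted p = 0.116), and EAPP minus wild type KLF11 was 0.06 (adjusted p = 0.696). These values are from the brighter of its clusters. The dimmer NRG1 cluster was -0.48 with A347S, -0.41 with Δ486, -0.28 with wild type KLF11 and -0.21 with EAPP, all under the 1.5-fold. KLF10, a close relative of KLF11, fell by 0.87 with A347S, by 0.83 in cells with Δ486 and by 0.63 with wild type KLF11, and was -0.43 with EAPP (adjusted p = 0.213).

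Feedback and adaptor genes of this list were called with A347S. ERRFI1, which encodes the EGFR inhibitor MIG6, fell by 0.83 with A347S and was -0.38 with EAPP (adjusted p = 0.24). SHC1, an adaptor of activated receptors, fell by 0.79 with A347S and was -0.28 with EAPP (adjusted p = 0.423). KLF6, a Krüppel-like factor of the immediate early type, fell by 0.87 with A347S and was -0.32 with EAPP. EAPP minus A347S was 0.44 for ERRFI1 (adjusted p = 0.00426), 0.50 for SHC1 (adjusted p = 0.00384) and 0.55 for KLF6 (adjusted p = 0.00194), all under the 1.5-fold. These genes were called with Δ486 too, at -0.63 for ERRFI1, -0.62 for SHC1 and -0.66 for KLF6. With wild type KLF11 they were -0.52, -0.53 and -0.54, which passed the adjusted p but were under the 1.5-fold. There KLF6 was -0.64 without the first empty vector array and -0.62 without the first wild type KLF11 array. SHC1 was -0.60 there without the second empty vector array. The SHC1 call with Δ486 was lost with cyclic loess scaling (-0.57) and without the first empty vector array (-0.54), and that of KLF6 without the second empty vector array (-0.57).

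CBL is a ubiquitin ligase of EGFR, SOS1 an exchange factor of RAS, and ZFP36 encodes the mRNA decay factor tristetraprolin. All 3 were called lower against empty vector with A347S alone, at -0.69, -0.62 and -0.65. They were -0.56, -0.54 and -0.44 with Δ486, and -0.43, -0.47 and -0.42 with wild type KLF11. After median centring CBL and SOS1 were called with Δ486 too (-0.63 and -0.61). A347S minus wild type KLF11 called 0 of the 47 further genes. The 3 A347S calls were lost without the second A347S array (-0.57, -0.52 and -0.49), that of ZFP36 also without the first empty vector array (-0.46). Those of SOS1 and ZFP36 were also lost with cyclic loess scaling (-0.54 and -0.57). Their EAPP values were -0.22, -0.19 and -0.26. CBLB, a relative of CBL, was called with wild type KLF11 (-0.64, adjusted p = 0.0163) and had an EAPP value of -0.20. It was -0.53 with A347S and -0.46 with Δ486, and was not called with either. The CBLB call was lost without the first wild type KLF11 array (-0.57) and without either empty vector array (-0.59 and -0.68). CCN1, a secreted matricellular protein of the immediate early class, was -0.33 with EAPP (unadjusted p = 0.0037) and -0.56 with A347S (adjusted p = 0.000965). CCN1 was -0.38 with Δ486 and -0.30 with wild type KLF11, which passed the adjusted p but were under the 1.5-fold. For CCN1, EAPP minus wild type KLF11 was -0.03. It was called with A347S after median centring (-0.61), without the first empty vector array (-0.62) and without the first A347S array (-0.66).

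RPS6KA1 and ETV1 were also called between EAPP and another form. RPS6KA1, which encodes the ERK-activated kinase RSK1, read 8.06 and 8.26 with EAPP, 7.43 and 7.58 with A347S, 7.80 and 7.68 with Δ486, 7.55 and 7.69 with wild type KLF11, and 8.23 and 8.30 with empty vector. The EAPP arrays overlapped those of empty vector, and the 6 arrays of the other forms lay below both groups. RPS6KA1 fell by 0.76 with A347S and by 0.65 with wild type KLF11, where it was no longer called without the first array of that group (-0.58). With Δ486 it was -0.52 and passed the adjusted p, and it was called there after median centring (-0.59). The EAPP value was -0.10 (adjusted p = 0.825). EAPP minus A347S was 0.66 (adjusted p = 0.00128), no longer called without the first A347S array (0.58) or the second EAPP array (0.55). ETV1, the remaining PEA3 factor, read 7.64 and 6.92 with EAPP, 8.11 and 8.20 with A347S, 7.88 and 7.86 with Δ486, 8.17 and 7.84 with wild type KLF11, and 7.53 and 7.46 with empty vector. The EAPP arrays lay far apart, 1 on each side of empty vector, and the 6 arrays of the other forms were above both groups. ETV1 rose with A347S (0.66, SE 0.19, adjusted p = 0.0285), a call lost without either array of A347S or of empty vector (0.62 to 0.71, adjusted p = 0.0825 to 0.139). EAPP minus A347S was -0.88 (adjusted p = 0.00955), no longer called without the second A347S array (-0.83) or the second EAPP array (-0.52). EAPP minus wild type KLF11 was -0.72 (adjusted p = 0.0447) and was no longer called when any single array other than the first EAPP array was left out, with values of -0.88 to -0.36, or when all 28869 clusters were tested (-0.72, adjusted p = 0.0772).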

How the data were processed

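Expression in Panc1 cells was measured on 10 Human Gene 1.0 ST arrays, 2 for each of 5 groups taken from the sample labels. The values used are the log2 values deposited by the authors, who subtracted background and normalized intensities with Robust Multiarray Analysis. The processing notes name Partek 6.6, and the sources used here give no genome build for the annotation. Of 28869 transcript clusters, 20961 carried a symbol and were tested, 19229 of them a single one. Symbols were compared with RefSeq by gene number, which matched 19198 clusters and renamed 0.

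With limma 3.58.1 (R 4.3.3), group means were fitted over the 10 arrays with 5 residual and 4.54 prior degrees of freedom, and p-values were adjusted over all 20961 clusters. They measure the spread between arrays, which may be technical. The median standard error was 0.0954. The methods state a log2 fold threshold of 1.5 and the results a 1.5-fold; the 1.5-fold was used. Values on every array are given for genes called in any comparison and for the 2 of each role with the smallest p in EAPP minus empty vector. Of the further pathway list, the called genes and the 4 with the smallest p against empty vector are named. SPRY4, MAPK3 and ETV5 are singled out also for their differences between forms, after their values were seen. Members, lists and tests were chosen with earlier results of these data known. The code was tested on simulated data. Motifs were counted on both strands with Python 3.11.15, and figures drawn with matplotlib 3.10.9. The chromatin immunoprecipitation of the study was not analysed here.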

Additional observations from a re-analysis of the deposited data

How the results depend on the processing

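Each result was recomputed with cyclic loess scaling, median centring, trend and robust moderation, a plain t-test without moderation, all 28869 clusters, dim clusters left out, the mean of a gene's clusters, other fold thresholds, a replicate number block and, 1 at a time, the omission of every array. No called value changed sign in any of them. The plain t-test, which has no moderation of the spread, called 0 members and 0 further pathway genes with A347S, Δ486 and wild type KLF11. It called 0 members for EAPP against each of these forms. As it called 0 of all clusters against empty vector with every form, these counts say nothing particular about these genes. A log2 fold threshold of 1.5 also called 0 in all of these comparisons. It could call none, since the largest changes were -1.12 for a member (ETS2) and -1.09 for a further gene (NRG1), both with A347S. With no fold threshold the members called were 20 with A347S, 10 with Δ486, 9 with wild type KLF11, 14 for EAPP minus A347S, 7 for EAPP minus Δ486 and 3 for EAPP minus wild type KLF11. At an unadjusted p for EAPP minus empty vector they were 11, and the further genes called were 29, 19 and 14 with A347S, Δ486 and wild type KLF11. Median centring called 8 further genes with Δ486 and moved the members' median with Δ486 to -0.24, and cyclic loess moved that with A347S to -0.15. Over all clusters, the share of calls that were higher was 40.4% with A347S and 42.4% with Δ486, against 31.6% and 27.9% after median centring.

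Where an array was omitted, the remaining one was taken to have the spread of the other conditions. Members called then ranged from 6 to 10 with A347S, 3 to 5 with Δ486 (3 without the second empty vector array) and 2 to 4 with wild type KLF11 (4 without its second array). They stayed at 0 with EAPP, also at the unadjusted criterion, and ranged from 2 to 2, 1 to 2 (2 without the first Δ486 array) and 0 to 1 (0 without the first wild type KLF11 array) for EAPP minus A347S, Δ486 and wild type KLF11. They stayed at 0 for both other mutants minus wild type KLF11. Further genes called ranged from 7 to 12 with A347S, 4 to 8 with Δ486 (8 without its second array) and 3 to 4 with wild type KLF11, and stayed at 0 with EAPP. The members' median ranged from -0.13 to -0.08 with EAPP, -0.23 to -0.19 with A347S, -0.17 to -0.14 with Δ486 and -0.19 to -0.15 with wild type KLF11.

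The labels number 2 arrays per group. Deviations of same-numbered arrays correlated at -0.348 (Δ486 with EAPP) to 0.145 (wild type KLF11 with EAPP). The main fit did not pair arrays by number, and whether arrays share a component across the numbers was not tested. A fit with the replicate number as a block called 8 members with A347S, 5 with Δ486, 2 with wild type KLF11 and 0 with EAPP, and changed no call of a named gene. The precision is limited by 2 arrays per group. If these are technical duplicates of pooled RNA, as the methods state, a difference between forms cannot be told apart from one between pools.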
